A study of Homo sapiens with 32 samples.

Results

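The genes described here build and feed the DNA replication fork. They were chosen by name as a module of 42 human genes in 7 roles: origin licensing (MCM2 to MCM7, MCM10, CDT1, CDC6, ORC2 and ORC6), helicase activation (CDC45 and GINS1 to GINS4), polymerases and primase (POLA1, POLA2, POLD1, POLD2, POLD3, POLE, POLE2, PRIM1 and PRIM2), the sliding clamp and its loader (PCNA and RFC2 to RFC5), maturation and single-strand binding (FEN1, LIG1, RNASEH2A, RPA1, RPA2 and RPA3), nucleotide supply (TYMS, RRM1, RRM2 and TK1) and chromatin assembly (CHAF1A and CHAF1B). A gene was tested when a probe with its symbol, or with an older symbol of it, was detected on at least 4 of the 32 arrays, and 40 of the 12973 genes tested on the arrays were members. POLD2 was not analysed here, because no probe carried its symbol, and the POLD3 probe was detected on only 1 array.

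The study measured total RNA of 2 human liver cancer lines on Illumina bead arrays in 8 groups of 4 arrays. Huh7 is labelled as an HCC (hepatocellular carcinoma) line and HepG2 as an HB (hepatoblastoma) line. One subset set SAHA (also called vorinostat), which inhibits the zinc-dependent histone deacetylases with HDAC2 among them, against its solvent DMSO in each line. The second subset set an siRNA against HDAC2 against a scrambled siRNA, again in each line. Dose, duration and siRNA sequence are absent from the labels. Whether the 4 arrays of a group stand for separate cultures is not labelled either, so p-values measure the spread between these arrays only.

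Before S phase the origin recognition complex, CDC6 and CDT1 load the MCM2 to MCM7 ring onto DNA, which licenses the origin. CDC45 and the GINS complex then join the ring to form the active helicase, polymerase alpha with primase lays down primers, and polymerases epsilon and delta extend them on the PCNA clamp, which RFC loads. FEN1, RNase H2 and ligase I finish the lagging strand, RPA covers single-stranded DNA, ribonucleotide reductase, thymidylate synthase and thymidine kinase supply the deoxynucleotides, and CAF-1 places histones on the new DNA. Many of these genes are transcribed at the G1/S boundary by E2F factors, and their levels are widely used as a readout of proliferation.

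The siRNA check held in both lines, with HDAC2 signal at 9.87% of control in Huh7 and 12.1% in HepG2. Under SAHA the HDAC2 probe gave a log2 change of 0.45 in Huh7 (adjusted p = 0.00035) and of -0.16 in HepG2 (adjusted p = 0.209). The median raw signal of an array ran from 118.2 to 195.5, and 48.3% to 54.9% of probes were detected. All 12 hepatocyte markers examined were detected. Of 8 leukocyte markers, PTPRC and CD3E were detected on fewer than 4 arrays, and of 8 fibroblast and endothelial markers COL3A1 was detected on none and KDR on fewer than 4. The summed signal of the 6 detected leukocyte markers moved with SAHA, from between 4030 and 4510 to between 1056 and 1384 in Huh7 and from between 2053 and 2372 to between 7051 and 7858 in HepG2, and that of the 6 detected fibroblast and endothelial markers was higher with SAHA in both lines, from between 287.2 and 333.1 to between 538.2 and 612.4 in Huh7 and from between 375.2 and 514.3 to between 913.9 and 971.6 in HepG2. The summed signal of the hepatocyte markers was between 151431 and 157522 in Huh7 with DMSO and between 73036 and 74185 with SAHA, where all 12 were lower, and in HepG2 it was between 252820 and 266914 with DMSO and between 247413 and 257317 with SAHA, where 2 were lower and 1 higher. With the siRNA in Huh7 the leukocyte sum went from between 741.6 and 959 to between 571 and 632.6, and the fibroblast and endothelial sum from between 257.1 and 285.4 to between 238.7 and 251.1, each without overlap. Their part in the results on the replication genes was not tested.

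With SAHA, replication genes fell in both lines. In Huh7, 32 of the 40 members were lower and 2 were higher at an adjusted p below 0.05, where 29.1% of all genes tested were lower and 31.6% were higher. In HepG2, 38 members were lower and none was higher, where 27.6% of all genes were lower and 27% higher. The median log2 change of the members was -1.24 in Huh7, which is 42.4% of the control signal, and -2.33 in HepG2, which is 19.9%, while the median over all genes was 0.01 and -0.01. When arrays were brought to a common median in place of common quantiles, the median over all genes moved to -0.13 and -0.17, the share of higher genes among all those called went from 52% to 39.2% in Huh7 and from 49.4% to 32.3% in HepG2, and the median of the members stood at -1.64 and -2.67, which is still below that of all genes. In Huh7 25 members fell at least 2-fold and 9 at least 4-fold, and in HepG2 32 and 21. Of the 12973 genes tested, 1508 and 363 did so in Huh7, and 1073 and 221 in HepG2. The members not called with SAHA were ORC2, GINS1, GINS4, PRIM1, RFC2 and RPA1 in Huh7, where ORC6 and RPA3 were the 2 that rose, and ORC6 and RPA3 in HepG2. With arrays brought to a common median, ORC2 (-0.57, adjusted p = 0.000874) and RPA1 (-0.52, adjusted p = 0.000814) in Huh7 and RPA3 in HepG2 (-0.63, adjusted p = 0.00113) were called lower as well, and ORC2 and RPA3 were each called under 3 further alternatives. On the 4 SAHA arrays of 33 members in Huh7, and of 38 in HepG2, every value lay below all 4 DMSO values, against 26.1% of all genes in either line. In RNA from a whole cell population, fewer cells with a transcript and less of it per cell cannot be told apart.

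The HDAC2 siRNA moved fewer members and moved them less. In Huh7, 22 members were lower and 3 were higher (22.4% and 22.9% of all genes), with a median log2 change of -0.38. There, 4 members fell at least 2-fold, as did 659 of the 12973 genes tested. In HepG2, 10 were lower and 5 were higher (17.8% and 18.8% of all genes), with a median of -0.05. The HepG2 count was near the background share in both directions. It was also the least stable of these counts: under median scaling 5 members were lower. Array by array, the median member stood at -1.35 to -1.23 log2 units from its controls with SAHA in Huh7, at -2.42 to -2.20 in HepG2, and at -0.44 to -0.26 with the siRNA in Huh7. The 4 HepG2 siRNA arrays stood at 0.03, 0.01, -0.16 and -0.27 and overlapped their controls. Within that group 22 of the 40 members were higher on both of replicates 1 and 2 than on both of replicates 3 and 4, as were 24.3% of all genes, and the median SD of a member was 0.23 there against 0.10 to 0.16 in the other 7 groups.

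**Figure D1:**
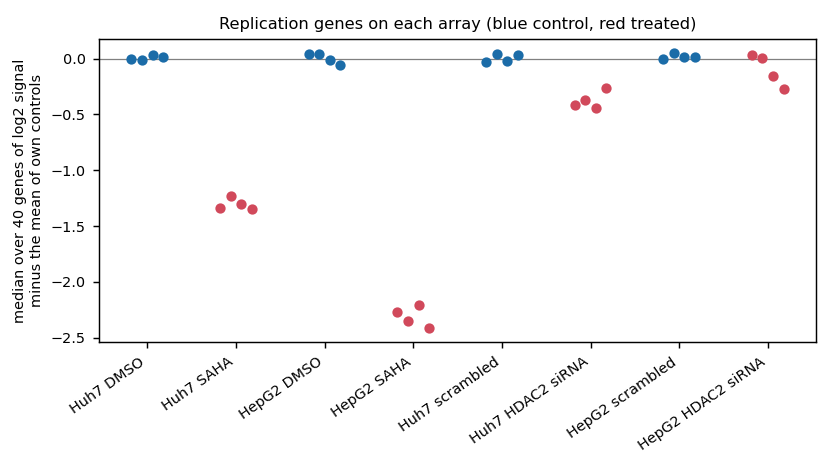
For each of the 32 arrays, the point gives the median over 40 replication genes of the log2 signal minus the mean of the 4 control arrays of the same line and subset (vertical axis), by group (horizontal axis). SAHA arrays of HepG2 lie lowest, between -2.42 and -2.20, and those of Huh7 between -1.35 and -1.23.

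**Figure D2:**
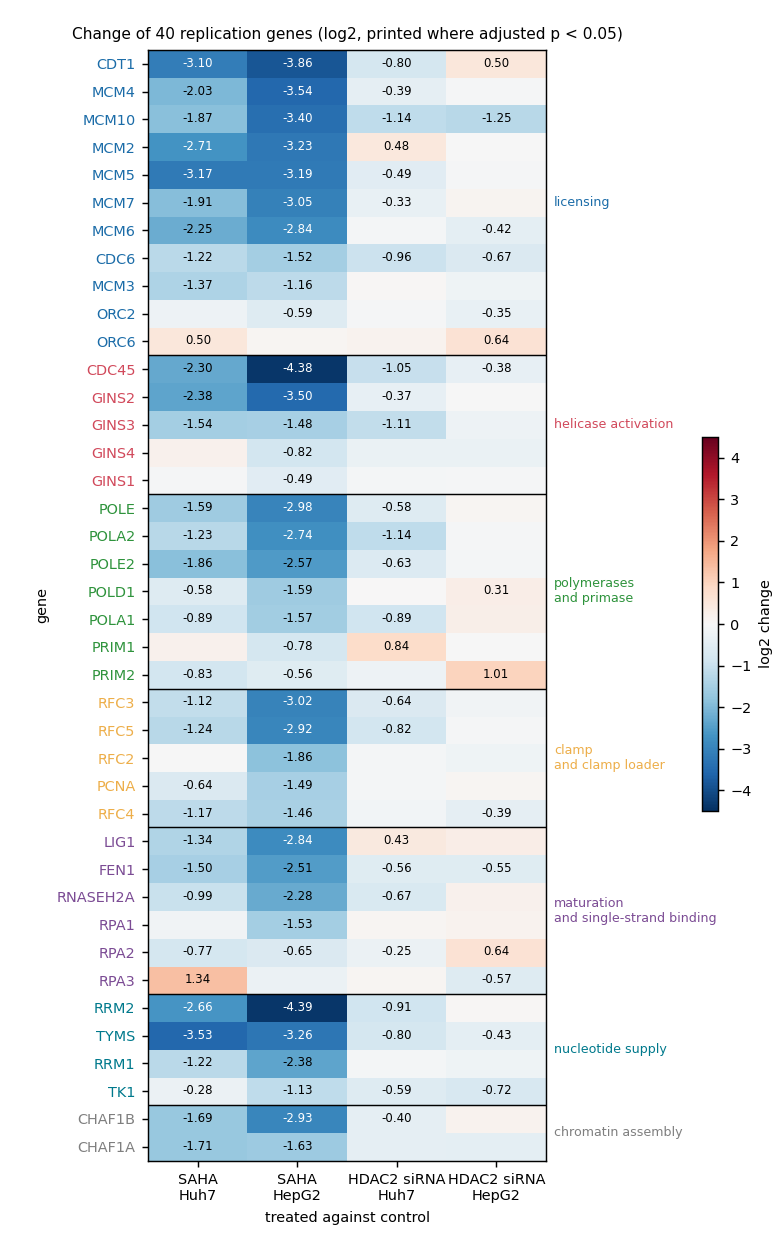
Colour shows the log2 change of each of 40 genes (rows, ordered within each role by the HepG2 SAHA change) in 4 comparisons of treated with control arrays (columns, n = 4 arrays per group), and the value is printed where the adjusted p was below 0.05. The SAHA columns hold 70 negative and 2 positive printed values, and the siRNA columns 32 negative and 8 positive.

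The promoters of the members share letters that the choice of genes did not use. RefSeq windows of 300 bases, from 250 bases before to 50 bases after an annotated start (build GRCh38.p14), were matched by symbol for 36 of the 42 genes. An E2F-like spelling (TTCCCGC as the first spelling searched, TTGGCGC as the second, TTCGCGC as the third and TTGCCGC as the last, each on either strand) stood in a window of 27 of these 36 genes (75%), against 23.7% of the 10123 tested genes with a window and 15.3% of all 27305 genes in the table. Counted by single windows of that length, 28 of 45 (62.2%) held it, against 13% of all 35116. The CCAAT box, on either strand, stood in 22 (61.1%), against 43.7% of the tested genes with a window. The cell cycle homology element (TTTGAA or TTCGAA, on either strand) stood in 2 of 36 (5.56%), against 16% of the tested genes with a window. A match is a description of the letters and not evidence of a bound site. The first listed window is printed for the gene with the largest mean change in each role, because these genes carry the changes described next. Capitals mark the E2F-like spellings, and all sequences run 5′ to 3′ along the gene's strand.
CDT1 (licensing), chr16:88803539-88803838, plus strand: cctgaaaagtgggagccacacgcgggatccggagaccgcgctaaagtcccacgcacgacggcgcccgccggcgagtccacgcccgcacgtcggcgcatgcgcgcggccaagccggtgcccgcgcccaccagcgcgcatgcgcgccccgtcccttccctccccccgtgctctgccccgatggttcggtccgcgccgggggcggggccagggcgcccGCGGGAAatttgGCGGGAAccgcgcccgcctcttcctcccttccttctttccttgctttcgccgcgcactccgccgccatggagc
CDC45 (helicase activation), chr22:19479670-19479969, plus strand: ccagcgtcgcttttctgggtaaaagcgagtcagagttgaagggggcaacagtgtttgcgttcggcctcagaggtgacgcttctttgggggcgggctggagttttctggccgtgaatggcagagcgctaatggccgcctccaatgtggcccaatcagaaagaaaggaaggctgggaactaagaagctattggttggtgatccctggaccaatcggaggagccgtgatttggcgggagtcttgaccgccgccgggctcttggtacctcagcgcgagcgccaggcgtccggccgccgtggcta
POLE (polymerase), chr12:132687293-132687592, minus strand: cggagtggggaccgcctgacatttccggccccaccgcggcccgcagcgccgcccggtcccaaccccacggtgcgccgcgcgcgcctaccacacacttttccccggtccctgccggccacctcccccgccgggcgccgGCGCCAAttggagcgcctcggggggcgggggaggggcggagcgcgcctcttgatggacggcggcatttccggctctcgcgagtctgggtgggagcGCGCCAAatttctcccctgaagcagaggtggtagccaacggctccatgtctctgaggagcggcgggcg
RFC5 (clamp loader), chr12:118016453-118016752, plus strand: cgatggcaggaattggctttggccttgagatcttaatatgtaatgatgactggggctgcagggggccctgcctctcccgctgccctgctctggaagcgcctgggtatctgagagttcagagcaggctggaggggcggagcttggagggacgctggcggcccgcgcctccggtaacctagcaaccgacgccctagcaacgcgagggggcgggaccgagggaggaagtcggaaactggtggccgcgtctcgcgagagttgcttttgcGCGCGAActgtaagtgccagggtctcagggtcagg
FEN1 (maturation), chr11:61792661-61792960, plus strand: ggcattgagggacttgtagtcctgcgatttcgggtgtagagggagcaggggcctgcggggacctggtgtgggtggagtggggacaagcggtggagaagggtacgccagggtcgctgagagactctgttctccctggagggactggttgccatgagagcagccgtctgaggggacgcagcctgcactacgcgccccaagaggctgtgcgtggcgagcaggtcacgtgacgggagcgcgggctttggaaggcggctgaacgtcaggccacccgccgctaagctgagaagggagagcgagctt
RRM2 (nucleotide supply), chr2:10122489-10122788, plus strand: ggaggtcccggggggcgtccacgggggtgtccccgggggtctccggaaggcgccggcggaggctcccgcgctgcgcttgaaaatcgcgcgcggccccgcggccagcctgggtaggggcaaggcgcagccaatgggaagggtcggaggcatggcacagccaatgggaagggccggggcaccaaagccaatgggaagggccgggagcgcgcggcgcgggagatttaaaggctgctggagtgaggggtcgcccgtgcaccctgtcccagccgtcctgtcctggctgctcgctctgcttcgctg
CHAF1B (chromatin assembly), chr21:36385142-36385441, plus strand: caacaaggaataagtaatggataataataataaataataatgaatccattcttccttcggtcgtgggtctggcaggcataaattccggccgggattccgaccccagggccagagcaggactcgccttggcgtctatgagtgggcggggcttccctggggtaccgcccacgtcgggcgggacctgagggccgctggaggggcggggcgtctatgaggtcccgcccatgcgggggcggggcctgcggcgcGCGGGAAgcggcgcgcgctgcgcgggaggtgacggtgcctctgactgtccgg
The printed CDT1 and POLE windows held 2 E2F-like spellings each, and those of RFC5 and CHAF1B held 1. Those of CDC45, FEN1 and RRM2 held none of these letters, although the CDC45 window held 4 CCAAT boxes and the RRM2 window 3. A second listed window of RRM2, not printed, held 1 E2F-like spelling, so RRM2 is among the 27 genes counted above. All 7 genes were among the 32 that fell with SAHA in both lines. They were picked by the size of their changes in these same data, so this says nothing about the letters.

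Among the licensing genes, 9 of 11 fell with SAHA in Huh7 and 10 of 11 in HepG2, with a median log2 change of -1.91 and -3.05. The MCM2 to MCM7 genes, which encode the helicase ring, fell without exception in both lines. Their log2 changes ran from -3.17 (MCM5) to -1.37 (MCM3) in Huh7 and from -3.54 (MCM4) to -1.16 (MCM3) in HepG2, so that MCM3 changed least of the ring in both. CDT1, the loading factor that geminin restrains, changed most on average of the 11. Its log2 signal on the 4 Huh7 arrays was 10.25, 10.27, 10.34 and 10.17 with DMSO and 7.01, 7.01, 7.41 and 7.20 with SAHA. In HepG2 it was 9.90, 10.08, 10.21 and 10.04 with DMSO and 6.29, 6.34, 6.38 and 5.76 with SAHA. The groups lay far apart in both lines, 8.59-fold in Huh7 (log2 change -3.10 ± 0.13 (SE), adjusted p = 2.69e-19) and 14.6-fold in HepG2 (log2 change -3.86 ± 0.13 (SE), adjusted p = 1.5e-21).

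The 2 genes of the origin recognition complex behaved differently from the ring. ORC2 gave a log2 change of -0.24 with SAHA in Huh7 (adjusted p = 0.0545) and fell in HepG2 (-0.59). ORC6 rose in Huh7 (0.50, adjusted p = 4.84e-05) and gave 0.10 in HepG2 (adjusted p = 0.388). CDC6, the ATPase that recruits CDT1, fell 2.33-fold in Huh7 and 2.87-fold in HepG2 with SAHA. Its probe was close to background, with 1 of 4 SAHA arrays detected in each line. MCM10, which helps to activate the loaded ring, fell in all 4 comparisons, with log2 changes of -1.87 and -3.40 with SAHA and -1.14 and -1.25 with the siRNA, in Huh7 and HepG2. A second, dimmer MCM10 probe also fell in all 4.

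With the siRNA, 6 licensing genes (54.5%) were lower in Huh7 and 1 (9.09%) was higher, against 22.4% and 22.9% of all genes. In HepG2 4 (36.4%) were lower and 2 (18.2%) higher, against 17.8% and 18.8%, so the higher share was near that of all genes. MCM4 (-0.39), MCM5 (-0.49) and MCM7 (-0.33) fell in Huh7 while MCM2 rose (0.48), and in HepG2 MCM6 was the only ring gene called (-0.42). Under median scaling, in which each array is brought to the same median, the HepG2 MCM6 call was lost (-0.31, adjusted p = 0.0782) and MCM7 was called higher (0.31, adjusted p = 0.0469), and the mean over its probes called MCM4 lower (-0.26, adjusted p = 0.0372). The MCM4 and MCM7 calls in Huh7 rest on the brightest probe, since the mean of each gene's probes gave -0.17 (adjusted p = 0.152) and -0.11 (adjusted p = 0.587).

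All 5 helicase activation genes were called lower with SAHA in HepG2, GINS1 only near background, and 3 of 5 fell in Huh7. CDC45, which locks the MCM ring into the active helicase, had a log2 signal of 11.35, 11.34, 11.47 and 11.42 with DMSO and 9.29, 9.04, 9.00 and 9.08 with SAHA in Huh7. In HepG2 its signal was 10.25, 10.35, 10.23 and 10.32 with DMSO and 5.94, 6.09, 5.94 and 5.67 with SAHA. That is a fall to 20.4% of control in Huh7 (log2 change -2.30 ± 0.11 (SE), adjusted p = 4.71e-18) and to 4.8% in HepG2 (-4.38 ± 0.11 (SE), adjusted p = 1.04e-24). With the siRNA the Huh7 arrays read 10.79, 10.91, 10.74 and 10.79 in the scrambled group and 9.75, 9.55, 9.78 and 9.93 in the HDAC2 group. The siRNA groups of Huh7 did not overlap (-1.05 ± 0.11 (SE), adjusted p = 1.02e-09). In HepG2 the siRNA change was -0.38 (adjusted p = 0.00485), with 1 of the 4 siRNA arrays inside the scrambled range, and the call was lost under median scaling (-0.31, adjusted p = 0.0633).

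Of the GINS subunits, which bridge CDC45 and the ring, GINS2 and GINS3 fell with SAHA in both lines, and GINS4 was called only in HepG2. GINS2 fell 5.22-fold in Huh7 and 11.3-fold in HepG2 with SAHA, and GINS3 fell 2.91-fold and 2.78-fold. GINS4 gave a log2 change of 0.18 in Huh7 (adjusted p = 0.259) and fell in HepG2 (-0.82, adjusted p = 4.16e-06). GINS1 was detected on 5 of 32 arrays, of which 1 was a HepG2 DMSO array and none HepG2 SAHA. It was called lower with SAHA in HepG2 (adjusted p = 0.0302), but with most arrays of both groups undetected, no size can be given. That call was lost without 1 of 4 arrays in turn (DMSO replicate 3 or 4, SAHA replicate 1 or 2), with an adjusted p of 0.0528 to 0.129. With the siRNA in Huh7, GINS3 and GINS2 fell (-1.11 and -0.37 on the log2 scale), and the GINS2 call was lost without 1 of 3 arrays in turn (adjusted p up to 0.0678).

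The 7 tested polymerase and primase genes were all called lower with SAHA in HepG2, with a median log2 change of -1.59, and 6 of 7 fell in Huh7, with a median of -0.89. POLE, the catalytic subunit of the leading-strand polymerase, read 9.03, 8.71, 8.82 and 8.87 with DMSO and 7.35, 7.14, 7.44 and 7.16 with SAHA in Huh7. In HepG2 it read 8.63, 8.69, 8.74 and 8.53 with DMSO and 5.63, 5.60, 5.42 and 6.01 with SAHA. The SAHA arrays lay below all DMSO arrays in both lines, with a fall of 3.01-fold in Huh7 and 7.89-fold in HepG2 (log2 changes -1.59 ± 0.13 (SE) and -2.98 ± 0.13 (SE), adjusted p = 4.41e-12 and 1.49e-18). The other polymerase genes fell as well, with log2 changes in Huh7 and HepG2 of -1.86 and -2.57 for POLE2, the accessory subunit of POLE, -0.89 and -1.57 for POLA1 and -1.23 and -2.74 for POLA2 of polymerase alpha, and -0.58 and -1.59 for POLD1, the catalytic subunit of polymerase delta. With the siRNA in Huh7, POLA2 (-1.14), POLA1 (-0.89), POLE2 (-0.63) and POLE (-0.58) fell, and none of these 4 was called in HepG2, where their log2 changes lay between -0.09 and 0.27.

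PRIM1 and PRIM2, the catalytic and the large subunit of primase, start the new strands that the polymerases extend. PRIM1 gave a log2 change of 0.20 with SAHA in Huh7 (adjusted p = 0.151), where the polymerase alpha genes fell, and fell in HepG2 (-0.78, adjusted p = 1.07e-06). The PRIM2 probe was near background. It was detected on all 4 DMSO arrays and on none of the SAHA arrays of Huh7, which makes it at least 1.48-fold lower there (adjusted p = 0.00115). In HepG2 its SAHA and DMSO arrays overlapped (-0.56, adjusted p = 0.0271). That call was lost with no background correction (-0.20, adjusted p = 0.056), on the authors' normalized values (-1.14, adjusted p = 0.198) and without DMSO replicate 2 or SAHA replicate 2 or 4 (adjusted p of 0.0751 to 0.113).

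The clamp and clamp loader genes all fell with SAHA in HepG2, and 4 of 5 fell in Huh7. RFC5, one of the small subunits of the clamp loader, read 10.29, 10.62, 10.55 and 10.48 with DMSO and 9.19, 9.46, 9.17 and 9.15 with SAHA in Huh7. In HepG2 it read 10.35, 10.22, 10.20 and 10.25 with DMSO and 7.36, 7.47, 7.38 and 7.12 with SAHA. The log2 change was -1.24 ± 0.13 (SE) in Huh7 and -2.92 ± 0.13 (SE) in HepG2 (adjusted p = 4.17e-10 and 9.58e-19), and no SAHA array reached the DMSO range. In Huh7 and HepG2 RFC3 gave log2 changes of -1.12 and -3.02, and RFC4 of -1.17 and -1.46. RFC2 gave -0.03 in Huh7 (adjusted p = 0.922) and fell in HepG2 (-1.86, adjusted p = 1.73e-08). A second, dimmer RFC2 probe gave -0.24 in Huh7 (adjusted p = 0.22) and fell less in HepG2 (-0.67, adjusted p = 0.000889). PCNA, the clamp itself, fell less than most members, to 64.1% of control in Huh7 and to 35.5% in HepG2. The PCNA values come from its brightest probe. 2 dimmer PCNA probes passed no test in any comparison, and the mean over its probes gave -0.21 in Huh7 (adjusted p = 0.223). With the siRNA, RFC3 and RFC5 fell in Huh7 (-0.64 and -0.82), and RFC4 in HepG2 (-0.39, adjusted p = 0.0156). The RFC4 call was lost without siRNA replicate 2 (-0.32, adjusted p = 0.0618) and under median scaling. A second RFC4 probe, nearly as bright, was called in Huh7 (-0.38, adjusted p = 0.00291) and not in HepG2 (-0.16, adjusted p = 0.224). The mean over probes also called RFC4 in Huh7 (-0.26, adjusted p = 0.0309) and RFC3 in HepG2 (-0.42, adjusted p = 0.00141).

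Of the maturation and single-strand binding genes, 4 of 6 fell and 1 rose with SAHA in Huh7, and 5 of 6 fell in HepG2. FEN1, the flap endonuclease that trims Okazaki fragments, fell in all 4 comparisons. Its log2 signal in Huh7 was 12.95, 13.00, 13.01 and 12.88 with DMSO, 11.33, 11.49, 11.52 and 11.50 with SAHA, 12.56, 12.75, 12.62 and 12.83 with scrambled siRNA and 12.09, 12.17, 12.08 and 12.18 with the HDAC2 siRNA. In HepG2 the same 4 groups read 11.76, 11.81, 11.93 and 11.61, then 9.28, 9.17, 9.28 and 9.33, then 11.58, 11.81, 11.74 and 11.80, then 11.34, 11.42, 11.05 and 10.92. Treated and control arrays did not overlap in any of the 4 pairs. FEN1 fell 2.83-fold and 5.7-fold with SAHA and 1.48-fold and 1.46-fold with the siRNA, in Huh7 and HepG2, each with an SE of 0.097 on the log2 scale (adjusted p = 1.84e-14, 7.96e-20, 1.52e-05 and 4.37e-05). RNASEH2A, the catalytic subunit of RNase H2, fell with SAHA in both lines (-0.99 and -2.28) and with the siRNA in Huh7 (-0.67). LIG1, the ligase that seals the fragments, fell with SAHA in both lines (-1.34 and -2.84).

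The RPA subunits, which together coat single-stranded DNA, each moved in a different way with SAHA. RPA1 gave -0.15 in Huh7 (adjusted p = 0.155) and fell in HepG2 (-1.53, adjusted p = 4.1e-15). RPA2 fell by similar amounts in both lines (-0.77 and -0.65). RPA3, the smallest subunit, rose 2.53-fold in Huh7, from 11.32, 11.05, 10.82 and 11.11 with DMSO to 12.41, 12.55, 12.30 and 12.38 with SAHA (adjusted p = 1.66e-10). In HepG2 RPA3 read 11.24, 11.16, 11.04 and 11.35 with DMSO and 10.80, 10.98, 10.96 and 10.98 with SAHA, a log2 change of -0.27 (adjusted p = 0.0793).

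All 4 nucleotide supply genes fell with SAHA in both lines. RRM2, the S phase subunit of ribonucleotide reductase, and CDC45 had the lowest changes of the 40 in HepG2, within 1 SE of each other. The RRM2 probe read 8.69, 9.47, 9.39 and 9.41 with DMSO and 6.89, 7.04, 5.85 and 6.54 with SAHA in Huh7. In HepG2 it read 10.01, 10.00, 9.97 and 9.83 with DMSO and 5.31, 5.78, 5.59 and 5.57 with SAHA, where 3 of the 4 SAHA arrays were detected. SAHA arrays lay below every DMSO array in both lines, at 15.8% of control in Huh7 (log2 change -2.66 ± 0.18 (SE), adjusted p = 4.5e-14) and 4.77% in HepG2 (-4.39 ± 0.18 (SE), adjusted p = 2.81e-19). RRM1, the larger subunit, fell less, to 43% and 19.2%. TYMS, which makes thymidylate and is the target of fluorouracil, had the lowest change of the 40 in Huh7, to 8.66% of control, and to 10.4% in HepG2. TK1, the salvage kinase for thymidine, fell to 82.3% in Huh7 (adjusted p = 0.0209) and to 45.6% in HepG2. The Huh7 TK1 call was lost without 1 of 3 arrays in turn, with an adjusted p of up to 0.0615.

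With the siRNA, TK1 fell in Huh7 and HepG2 (-0.59 and -0.72), as did TYMS (-0.80 and -0.43), and RRM2 fell in Huh7 (-0.91) and gave 0.06 in HepG2 (adjusted p = 0.814). The TYMS call in HepG2 was lost under median scaling (-0.21, adjusted p = 0.274). RRM1 passed no test with the siRNA, with log2 changes of -0.08 and -0.20.

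CHAF1A and CHAF1B, the large and the middle subunit of the histone chaperone CAF-1, fell with SAHA in both lines. CHAF1B read 8.62, 8.67, 8.86 and 8.75 with DMSO and 6.93, 6.97, 7.16 and 7.06 with SAHA in Huh7. In HepG2 it read 8.72, 8.96, 8.79 and 8.74 with DMSO and 6.14, 6.00, 5.63 and 5.72 with SAHA. The groups were apart by 3.24-fold in Huh7 and 7.63-fold in HepG2 (adjusted p = 1.01e-11 and 2.84e-17). CHAF1A fell 3.26-fold in Huh7, where only 2 of 4 SAHA arrays detected it, so that size is uncertain. In HepG2, where no SAHA array detected it, it was at least 2.08-fold lower (adjusted p = 5.24e-07). With the siRNA CHAF1B was called in Huh7 (-0.40, adjusted p = 0.0237), in groups that overlap, and that call was lost without 1 of 4 arrays in turn (adjusted p up to 0.0755) and under median scaling (adjusted p = 0.0511). CHAF1A read 7.30, 7.26, 7.24 and 7.30 with scrambled siRNA and 6.86, 6.88, 6.67 and 7.10 with the HDAC2 siRNA in Huh7. These groups did not overlap, and the log2 change of -0.40 was not called (adjusted p = 0.179), but it was with only the arrays of that comparison in the fit (adjusted p = 0.00555).

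**Figure D3:**
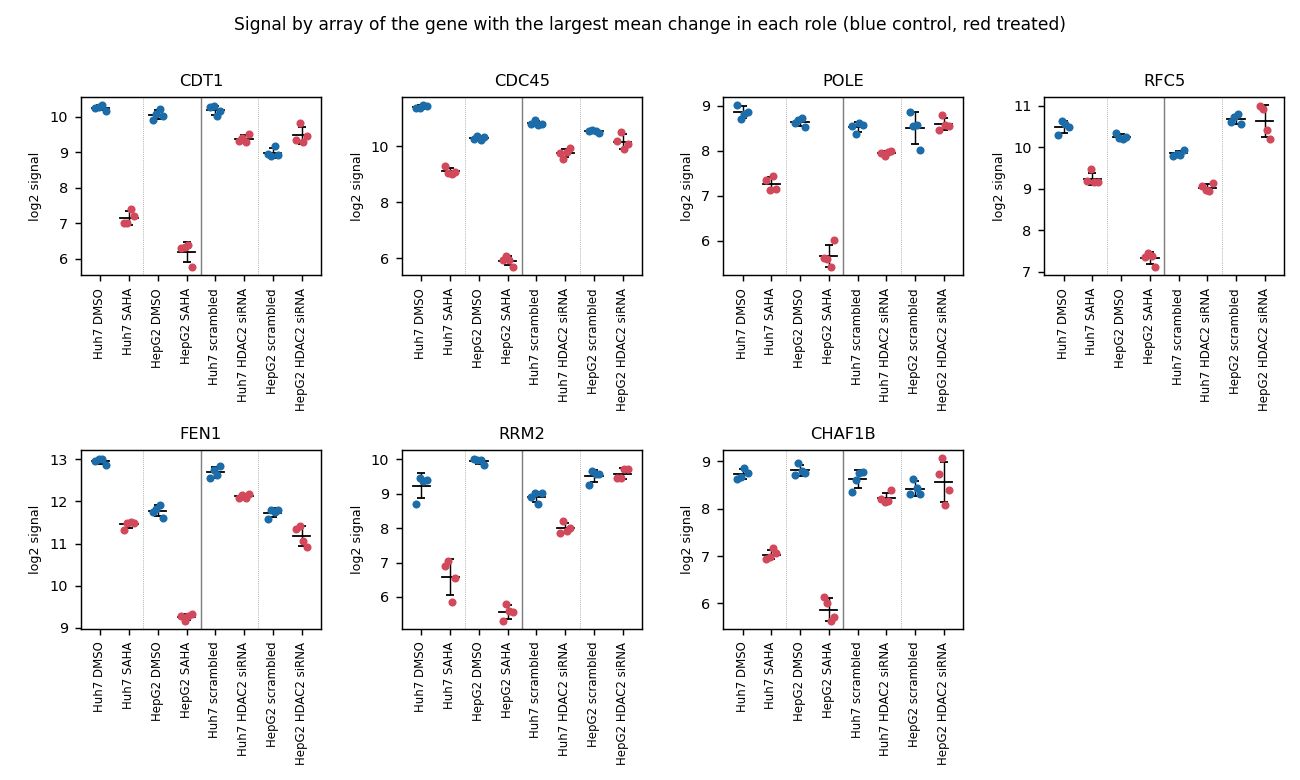
Each panel shows the log2 signal (vertical axis) of 1 gene on every array, by group (horizontal axis), for the gene with the largest mean change in each of 7 roles. Points are arrays, blue for controls and red for treated, with the mean and SD in black (n = 4). The SAHA arrays lie below the DMSO arrays of their line in all 7 panels, and FEN1 is the only 1 of the 7 whose siRNA arrays lie below the scrambled arrays in both lines.

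The SAHA fall was larger in HepG2 than in Huh7 for most members. The difference between the lines passed the test for 30 of the 40, all with the lower change in HepG2, where 28.1% of all genes had a lower and 24.1% a higher change in HepG2. The median difference was -0.99 (log2) over the members and -0.06 over all genes. It was largest for CDC45 (-2.09 ± 0.15 (SE), adjusted p = 5.32e-13), followed by RFC3 (-1.90), RFC2 (-1.83), RRM2 (-1.73) and RFC5 (-1.68). The RFC2 value rests on its brightest probe, and a dimmer one changed by -0.24 in Huh7 and -0.67 in HepG2. For 10 members the difference was not called, among them MCM5 (-0.02 ± 0.18 (SE)), GINS3 (0.06 ± 0.19 (SE)), CHAF1A (0.08 ± 0.33 (SE)) and TYMS (0.27 ± 0.18 (SE)). Over the 40 members the changes in the 2 lines, which share no arrays, correlated with a Pearson's r of 0.831 and a Spearman's rho of 0.851, against an r of 0.426 over all genes. These are descriptions, since the points of a line share its arrays and genes are not independent.

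With the siRNA the order of the lines was the other way. The difference passed the test for 20 members, 16 with the higher change in HepG2 and 4 with the lower, against 18.8% and 18.4% of all genes. CDT1 differed most (1.30 ± 0.18 (SE), adjusted p = 8.63e-07). Its log2 signal fell from 10.27, 10.31, 10.02 and 10.16 to 9.33, 9.40, 9.29 and 9.53 in Huh7 and rose from 8.94, 8.89, 9.17 and 8.92 to 9.33, 9.83, 9.29 and 9.47 in HepG2. PRIM2 (1.24), POLA1 (1.16), POLA2 (1.08) and RRM2 (0.97) came next among those higher in HepG2. The RRM2 difference was 0.35 and not called with the mean over its probes (adjusted p = 0.202), and that of PRIM2 was 2.37 and not called on the authors' normalized values (adjusted p = 0.0786). The second RRM2 probe carries the symbol C2orf48, listed as a synonym, and was dimmer (mean log2 signal 5.73 against 8.42). The 4 with the lower change in HepG2 were PRIM1 (-0.87), RPA3 (-0.67), MCM2 (-0.49) and MCM6 (-0.34). Under median scaling MCM2, RPA3 and MCM6 lost this call, which left 1. The Pearson's r between the lines was 0.272 over the members (rho 0.236) and 0.284 over all genes.

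**Figure D4:**
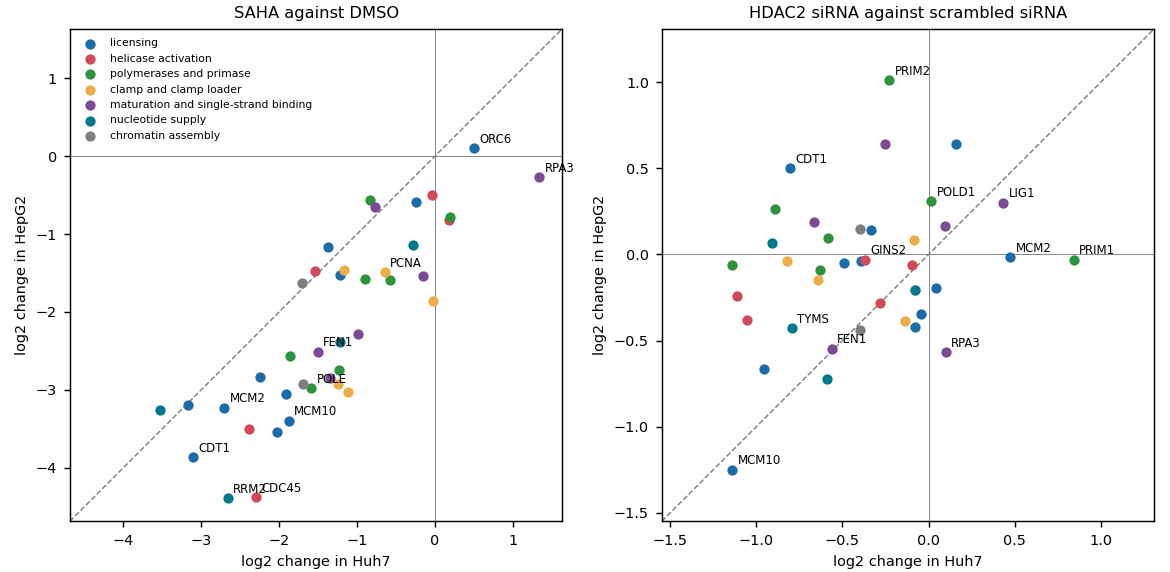
Log2 change in Huh7 (horizontal axis) against HepG2 (vertical axis) for 40 replication genes, with SAHA on the left and the HDAC2 siRNA on the right. Points are genes coloured by role, and the dashed line marks equal change. With SAHA most points lie below the dashed line towards the lower left, and with the siRNA they scatter around it.

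Lower in all 4 comparisons were MCM10, CDC6, CDC45, FEN1, TYMS and TK1, 6 of the 40, against 2.17% of all genes. MCM10 and FEN1 kept all 4 calls under every alternative run, TK1, CDC45 and TYMS lost a call as given above, and CDC6 lost both siRNA calls on the authors' normalized values (adjusted p = 0.106 in Huh7 and 0.467 in HepG2), where its log2 changes were larger, -1.72 and -0.88, than the -0.96 and -0.67 here. These 6 were also all the members that fell with the siRNA in both lines, as did 7.64% of all genes. Of the 32 members that fell with SAHA in both lines (14.9% of all genes did), 22 also fell with the siRNA in Huh7 and 8 in HepG2, patterns that 5.64% and 3.92% of all genes showed. MCM3, PCNA, RRM1 and CHAF1A fell with SAHA in both lines and were not called with the siRNA in either, as 3.75% of all genes. Tested against each other within a line, the SAHA change was lower than the siRNA change for 26 members in Huh7 and higher for 3 (25.7% and 29% of all genes), and lower for 37 in HepG2 and higher for none (24.5% and 24.2%). The largest such difference in Huh7 was that of MCM2 (-3.18), and the largest in HepG2 that of RRM2 (-4.45). The 3 in Huh7 were RPA3 (1.24), GINS4 (0.46) and ORC6 (0.34), of which GINS4 and ORC6 lost the call under median scaling. The 11 members of Huh7 with no call between the treatments included POLA1 (-0.00 ± 0.23 (SE)) and POLA2 (-0.09 ± 0.19 (SE)), whose SAHA and siRNA changes lay within 1 SE of each other. The 2 treatments had separate controls, and their doses and times are unknown here, so a difference between them holds for these samples as run.

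Called in opposite directions in 2 comparisons were 8 members, against 29.9% of all genes: MCM2, CDT1, POLD1, PRIM1, PRIM2, LIG1, RPA2 and RPA3. MCM2 fell 6.53-fold with SAHA in Huh7, from 11.09, 10.85, 11.09 and 11.15 to 8.38, 8.20, 8.53 and 8.23. The siRNA took it from 10.41, 10.14, 10.06 and 10.05 to 10.57, 10.67, 10.77 and 10.56 in the same line. The rise is 0.48 ± 0.11 (SE) (log2, adjusted p = 0.000608), and its call was lost under median scaling (0.33, adjusted p = 0.0517). PRIM1 fell in HepG2 with SAHA, from 9.39, 9.48, 9.28 and 9.09 to 8.56, 8.51, 8.77 and 8.29. It rose in Huh7 with the siRNA, from 9.16, 9.40, 9.51 and 9.32 to 10.20, 10.29, 10.20 and 10.06, with no overlap (0.84 ± 0.12 (SE), adjusted p = 4.53e-07). CDT1 and PRIM1 kept both of their opposite calls under every alternative run in which they were tested.

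LIG1 fell with SAHA in Huh7, from 9.93, 9.36, 9.65 and 9.85 to 8.28, 8.10, 8.45 and 8.58, and in HepG2, from 9.20, 9.28, 9.16 and 9.32 to 6.57, 6.20, 6.15 and 6.68. It rose with the siRNA in Huh7, from 8.88, 8.31, 8.74 and 8.69 to 9.25, 9.03, 9.04 and 9.04, a log2 change of 0.43 (adjusted p = 0.0078) that was lost without scrambled replicate 2 (0.32, adjusted p = 0.0579). RPA2 fell in Huh7 with SAHA, from 11.06, 10.93, 10.97 and 10.96 to 10.23, 10.27, 10.10 and 10.24, and rose in HepG2 with the siRNA, from 10.35, 10.81, 10.86 and 10.61 to 11.43, 11.44, 11.20 and 11.14. The siRNA rise of RPA2 in HepG2 was 0.64 ± 0.10 (SE) (log2, adjusted p = 7.29e-06), and the 4 siRNA arrays stood above all scrambled arrays. This rise and the SAHA falls of RPA2 kept their calls under every alternative run in which they were tested. RPA2 was also called lower with the siRNA in Huh7 (-0.25). That call was lost with no detection filter (adjusted p = 0.0514), with a replicate block (adjusted p = 0.0674) and without some single arrays in turn (adjusted p up to 0.142). RPA3 went the other way in both respects, up with SAHA in Huh7 as given above and down with the siRNA in HepG2, from 12.51, 12.17, 12.02 and 12.14 to 12.06, 11.53, 11.77 and 11.21 (-0.57, adjusted p = 0.000778). One siRNA array of RPA3 lay within the scrambled range.

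POLD1 and PRIM2 carry the weakest of these opposite calls. POLD1 with the siRNA in HepG2 went from 8.15, 8.21, 8.23 and 7.86 to 8.44, 8.78, 8.10 and 8.38, groups that overlap (0.31, adjusted p = 0.0499), and the call was lost when any of 6 arrays was left out (adjusted p up to 0.24). It was also lost under most alternatives that kept all arrays. Among them were median scaling (adjusted p = 0.075), the authors' normalized values (adjusted p = 0.0571) and only the arrays of the comparison (adjusted p = 0.193). PRIM2 with the siRNA in HepG2 went from 5.29, 5.72, 5.13 and 4.98, with 1 of 4 arrays detected, to 5.75, 6.69, 6.49 and 6.23, with all 4 detected (1.01, adjusted p = 0.000367). On the authors' normalized values the PRIM2 change was larger, 1.80, with an adjusted p of 0.057.

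**Figure D5:**
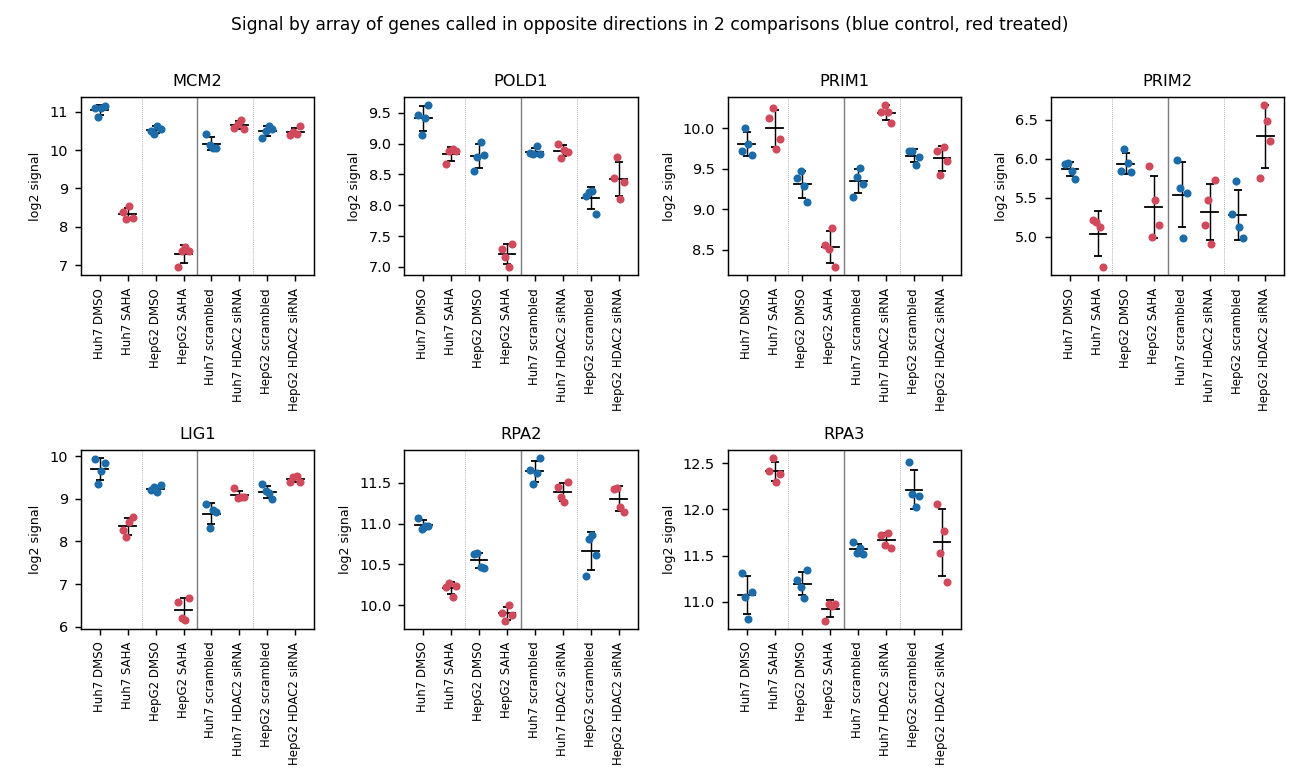
Log2 signal (vertical axis) on every array by group (horizontal axis) for the 7 genes, besides CDT1, that were called in opposite directions in 2 comparisons. Points are arrays, blue for controls and red for treated, with the mean and SD in black (n = 4). RPA3 shows Huh7 SAHA arrays above DMSO, between 12.30 and 12.55 against 10.82 and 11.32.

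Other genes of the pathway, listed by function outside the module, were also mostly lower with SAHA. Of 14 other licensing and origin firing genes, 8 were lower and 3 higher with SAHA in Huh7 and 10 lower in HepG2, with ORC1 (-1.93 and -2.53) and TICRR (-1.71 and -2.51), a firing factor, among those with the smallest p in both lines. Of 23 other fork, polymerase and maturation genes, 16 were lower and 3 higher in Huh7 and 18 lower and 1 higher in HepG2. EXO1, an exonuclease of mismatch repair, led both (-1.96 and -3.49), while RFC1, the large clamp loader subunit, rose 2.82-fold in Huh7 (adjusted p = 4.08e-12). Of 21 other nucleotide genes, 15 were lower and 2 higher in Huh7 and 13 lower and 4 higher in HepG2, led in both by UNG (-2.50 and -2.41), which removes uracil from DNA, and CTPS1 (-2.51 and -2.34), which makes CTP. The lower shares with SAHA were 57.1%, 69.6% and 71.4% in Huh7, against 29.1% of all genes, and 71.4%, 78.3% and 61.9% in HepG2, against 27.6%. The higher shares were 21.4%, 13% and 9.52% in Huh7, against 31.6%, and none, 4.35% and 19% in HepG2, against 27%. With the siRNA these 3 lists had 5 lower and none higher, 6 and 3, and 8 and 4 in Huh7, and 3 and none, 3 and 4, and 5 and 5 in HepG2. As shares, 35.7%, 26.1% and 38.1% of the lists were lower in Huh7, against 22.4% of all genes, and 21.4%, 13% and 23.8% in HepG2, against 17.8%, while 13% and 19% of the fork and nucleotide lists were higher in Huh7, against 22.9%, and 17.4% and 23.8% in HepG2, against 18.8%. EXO1 fell in Huh7 (-0.80) and rose in HepG2 (0.40) with the siRNA, and IMPDH2, an enzyme of guanine nucleotide synthesis, led the nucleotide list in Huh7 (-0.89).

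The regulators of the S phase programme split in each comparison. Of 28, 14 were lower and 6 higher with SAHA in Huh7, and likewise 14 and 6 in HepG2, which is 50% lower and 21.4% higher in each (29.1% and 31.6% of all genes in Huh7, 27.6% and 27% in HepG2). CDKN1A, which encodes the CDK inhibitor p21, rose in both lines (3.22 ± 0.10 (SE) in Huh7 and 1.67 ± 0.10 (SE) in HepG2, adjusted p = 8.67e-22 and 5.92e-15), and E2F2, an activating E2F, fell in both (-2.40 and -1.78). CCND1, cyclin D1, fell in Huh7 (-2.43), and E2F7, a repressing E2F, fell in HepG2 (-2.63). With the siRNA 12 (42.9%) were lower and 4 (14.3%) higher in Huh7, against 22.4% and 22.9% of all genes, and 9 (32.1%) lower and 7 (25%) higher in HepG2, against 17.8% and 18.8%. CDKN1A fell in Huh7 (-1.49, adjusted p = 3.76e-13) and rose in HepG2 (1.33, adjusted p = 1.42e-11), a difference between the lines of 2.82 ± 0.14 (SE) (adjusted p = 4.03e-15). CCND1 rose in both (0.85 and 0.91), CDKN1B, which encodes p27, rose in Huh7 (0.99), and CDK4 fell in HepG2 (-1.12).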

How the data were processed

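Total RNA of 32 samples was measured on Illumina bead arrays, with 1 array per sample. Per the labels' protocols, RNA was extracted with a Qiagen kit and amplified to biotinylated cRNA with an Ambion kit. The authors deposited probe signals as linear intensity with a detection p-value for each of 24526 probes, and per the submitters' processing notes they used GenomeStudio 2011.1. A second deposited table holds the authors' normalized intensity, on a linear scale with values down to -32.7 and column medians of 26.4 to 26.6. Per the values it was background-subtracted and quantile-normalized, and how is not given in the sources used in this work.

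From the probe signals, background was corrected by limma's normexp with the detection p-values (offset 16), followed by quantile normalization over the 32 arrays and log2. Probes with a detection p below 0.05 on at least 4 arrays were kept (16121), and the brightest kept probe stood for a gene (12973 genes). One limma model with 8 group means (R 4.3.3, limma 3.58.1, 24 residual degrees of freedom) gave 4 comparisons and 4 differences between them, with Benjamini-Hochberg adjustment over all genes and a call at an adjusted p below 0.05. A fold against a group in which no array detected a probe is a lower bound set at each array's dimmest detected probe. SE is the moderated standard error with n = 4 arrays per group, and the number of arrays limits the precision.

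The members, their roles and the other gene lists were chosen with earlier results of these data known. Every member may be named. Values by array are given for the member with the largest mean change in each role and for members called in opposite directions, and of other lists the genes with the smallest adjusted p in a comparison were named. Older symbols were updated through RefSeq, which matched 4 member probes. Promoter windows came from RefSeq (GRCh38.p14). The fit was tested on simulated data with known changes. No 2 arrays held identical values. Whether replicate numbers pair arrays across groups was checked: 4 of 16 same-numbered pairs correlated above 0.1 in their deviations, so the numbers were not taken as pairs.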

Additional observations from a re-analysis of the deposited data

Results flagged for a closer look

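Among 112 sets of 4 arrays examined by gene, 9 held 1 array that stood apart from the other 3 by Dixon's 95% criterion, and chance alone sets about 1 in 20 apart. The array stood low for CDT1 in HepG2 with SAHA (replicate 4 at 5.76, others 6.29 to 6.38), FEN1 in Huh7 with SAHA (replicate 1 at 11.33, others 11.49 to 11.52), RRM2 in Huh7 with DMSO (replicate 1 at 8.69, others 9.39 to 9.47), POLD1 in Huh7 with SAHA (replicate 1 at 8.67, others 8.87 to 8.90), PRIM2 in Huh7 with SAHA (replicate 4 at 4.61, others 5.13 to 5.22) and RPA3 in HepG2 with SAHA (replicate 1 at 10.80, others 10.96 to 10.98). It stood high for RFC5 in Huh7 with SAHA (replicate 2 at 9.46, others 9.15 to 9.19), POLD1 in Huh7 with scrambled siRNA (replicate 3 at 8.97, others 8.83 to 8.84) and LIG1 in Huh7 with the HDAC2 siRNA (replicate 1 at 9.25, others 9.03 to 9.04). Of the 14 genes followed by array, 12 also differed between the lines in their SAHA change and 11 in their siRNA change. By the same test of the difference itself, 52.2% and 37.2% of all genes differed. The 14 were picked by their changes in these same comparisons, so the counts are not independent of that choice.

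For SAHA, the log2 change in HepG2 minus that in Huh7 was -0.76 for CDT1, -2.09 for CDC45, -1.39 for POLE, -1.68 for RFC5, -1.01 for FEN1, -1.73 for RRM2 and -1.24 for CHAF1B. It was -0.52 for MCM2, -1.01 for POLD1, -0.97 for PRIM1, -1.50 for LIG1 and -1.61 for RPA3. With no background correction the CDT1 and MCM2 differences were not called, at -0.27 (adjusted p = 0.0581) and -0.20 (adjusted p = 0.153).

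For the siRNA, the same difference was 1.30 for CDT1, 0.67 for CDC45, 0.68 for POLE, 0.78 for RFC5, 0.97 for RRM2, 0.55 for CHAF1B, 1.24 for PRIM2 and 0.90 for RPA2, and it was -0.49 for MCM2, -0.87 for PRIM1 and -0.67 for RPA3. Leaving out 1 of 9 arrays in turn ended the CHAF1B call (adjusted p up to 0.107). With all arrays it was lost under median scaling (adjusted p = 0.0542) and on the authors' normalized values (adjusted p = 0.0621). With only the arrays of the comparison in the fit it was lost too (adjusted p = 0.0833). The RRM2 call was lost with the mean over its probes (0.35, adjusted p = 0.202) and the PRIM2 call on the authors' normalized values (2.37, adjusted p = 0.0786). The second RRM2 probe is the dimmer one labelled C2orf48.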

How the results depend on the processing

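Beside the values given above, 11 alternatives with all arrays gave 3480 values of members in the 8 contrasts, of which 61 lost their call, 42 gained one and 1 reversed. Leaving out each array in turn gave 3840, of which 90 lost and 27 gained a call and none reversed. The reversed value was the line difference of CHAF1A with SAHA, 0.08 and not called, which was -3.34 on the authors' normalized values (adjusted p = 3.57e-05). CHAF1A was not detected on any HepG2 SAHA array, and the authors' values were floored at 1 before log2. Under median scaling of the arrays, 5 members were lower with the siRNA in HepG2 in place of 10, 1 was lower in the line difference of the siRNA in place of 4, and 1 was higher with SAHA than with the siRNA in Huh7 in place of 3. On the authors' values 3 were higher with the siRNA in HepG2 in place of 5. With only the arrays of a comparison in the fit, 2967 of all genes were called with the siRNA in HepG2 in place of 4748. The causes were not tested.

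With the replicate block within line and experiment, 1 member was higher with SAHA than with the siRNA in Huh7 in place of 3, and the other counts of calls stayed within 1.5 times of those without it. Only 4 of 16 treated arrays correlated best with their own number.

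Without 1 array in turn, the count of members lower ranged from 31 to 33 with SAHA in Huh7, 36 to 38 with SAHA in HepG2, 19 to 23 with the siRNA in Huh7 and 10 to 11 with the siRNA in HepG2. Members higher with SAHA than with the siRNA ranged from 1 to 3 in Huh7 and from 0 to 1 in HepG2. The lowest count in Huh7 came without DMSO replicate 4, SAHA replicate 3, scrambled replicate 3, or siRNA replicate 1 or 3, and the 1 in HepG2 without siRNA replicate 1. A slide block was not run, because the headers name no slide. Probes near background (GINS1, PRIM2, CDC6 and CHAF1A) limit what can be said of those genes.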

Other observations

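The 2 lines differed in the control level of some replication genes. All 4 HepG2 control arrays lay below all 4 Huh7 control arrays, with DMSO and again with scrambled siRNA, for 11 of the 40 genes (19% of all genes tested): MCM5, MCM6, MCM7, CDC45, GINS4, POLA1, POLD1, FEN1, RNASEH2A, RPA1 and RPA2. They lay above in both for 3 genes (18% of all genes): GINS3, TYMS and RRM2. TYMS had a mean log2 signal of 11.34 in Huh7 and 12.69 in HepG2 with DMSO, and of 10.40 and 12.94 with scrambled siRNA. FEN1 stood at 12.96 and 11.78 with DMSO and at 12.69 and 11.73 with scrambled siRNA. For TK1 the order of the lines turned between the control kinds, with 10.98 in Huh7 and 10.72 in HepG2 with DMSO and 9.95 and 11.08 with scrambled siRNA. These levels were compared after the values were seen and were not tested.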
